A study of Mus musculus with 20 samples.

Results

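The p53 pathway and apoptosis genes are 35 genes that sense damage, hold p53 in check, arrest the cell or kill it. Open chromatin around them was read out by ATAC-seq (a transposase inserts adapters where DNA is exposed) in Lin-cKit+Sca1+ (LSK) bone marrow cells, the compartment of mouse stem cells and multipotent progenitors. A peak belonged to a gene when its centre lay inside that protein-coding gene (the shortest if several) or, failing that, when the gene had the nearest boundary. All 35 genes had at least 1 peak, and 361 of the 125343 peaks bore one of their names. A name therefore marks a neighbour, not a shown target, and no RNA was measured here.

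The 20 libraries came from C57Bl/6J mice aged 3 to 4 months, with 4 libraries for each of 5 genotypes and 2 mice pooled in each library. WT mice were +/+;Vav-Cre: they carried the recombinase, which is driven in blood cells by Vav regulatory DNA, and no mutant allele. The Idh1 mutant was Idh1LSL-R132H/+;Vav-Cre. Of the Idh2 mutants, the first was Idh2LSL-R140Q/+;Vav-Cre. The 4 count columns taken for Idh2 R140Q join the name IDH1 with 140Q. They were assigned by the 140Q part, which no other genotype carries, and every Idh2 R140Q value rests on that reading. The other Idh2 mutant was Idh2LSL-R172K/+;Vav-Cre, and each of these alleles is heterozygous and switched on by Cre. The fifth genotype was Tet2-/-. Its label names no Cre, so the loss of Tet2 and the absence of Cre cannot be told apart in its comparison with WT, and which part of Tet2 was deleted is not stated in the labels. Depth ran from 10.5 to 27.89 M counts in peaks per library. Peaks at the markers of the sorted gate were open (Kit, summed over its peaks, 244 ± 3.89 CPM in WT, SD, n = 4, and Ly6a, which encodes Sca1, 7.57 ± 0.564). CPM are counts scaled to a common library total (1e+06) after TMM scaling. Libraries stood apart at Xist, the RNA gene of the silenced X chromosome: 2 of each genotype held 3.83 to 4.67 CPM over its 3 peaks and the other 2 held 23.9 to 29.9. The high set was replicates 2 and 4, except in Tet2-/- where it was 3 and 4.

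p53 is a transcription factor that is kept scarce by Mdm2 and Mdm4 and is stabilised when the kinases Atm and Atr report DNA damage. It then switches on genes for cell cycle arrest and repair and genes for apoptosis. In the mitochondrial branch BH3-only proteins such as Bbc3 (PUMA), Pmaip1 (NOXA) and Bcl2l11 (BIM) block the survival proteins Bcl2, Bcl2l1 and Mcl1, which frees Bax and Bak1 to open the outer membrane, and Apaf1 then activates Casp9. Death receptors such as Fas act through Casp8. In blood stem cells p53 is known to govern quiescence and the response to radiation.

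The bases before the transcription start of 7 genes are shown because the results turn on their start-site peaks: 4 that opened (Btg2, Bbc3, Fas, Ccng1), 1 that closed (Casp8, at a start inside the gene) and 2 that were not called (Mdm2, Trp53). They are 250 bases each, from RefSeq on GRCm38.p6, the assembly of mm10, read 5′ to 3′ on the strand of the gene. Capitals mark a match to the p53 half-site, the short element that p53 binds in pairs. The windows lie at chr1:134079156-134079405 for Btg2 (minus strand), chr7:16309333-16309582 for Bbc3 (plus), chr19:34290409-34290658 for Fas (plus), chr11:40755287-40755536 for Ccng1 (minus), chr1:58802252-58802501 for Casp8 (plus), chr10:117710759-117711008 for Mdm2 (minus) and chr11:69580109-69580358 for Trp53 (plus).

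Btg2: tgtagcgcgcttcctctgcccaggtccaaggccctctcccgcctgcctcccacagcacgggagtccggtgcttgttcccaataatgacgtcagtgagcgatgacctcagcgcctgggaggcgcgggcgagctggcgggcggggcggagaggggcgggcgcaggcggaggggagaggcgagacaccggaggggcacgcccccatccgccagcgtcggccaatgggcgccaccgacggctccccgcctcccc
Bbc3: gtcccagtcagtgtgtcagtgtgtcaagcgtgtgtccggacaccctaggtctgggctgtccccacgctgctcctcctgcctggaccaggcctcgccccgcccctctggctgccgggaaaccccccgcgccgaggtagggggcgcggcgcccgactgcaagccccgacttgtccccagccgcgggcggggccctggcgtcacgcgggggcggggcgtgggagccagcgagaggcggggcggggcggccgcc
Fas: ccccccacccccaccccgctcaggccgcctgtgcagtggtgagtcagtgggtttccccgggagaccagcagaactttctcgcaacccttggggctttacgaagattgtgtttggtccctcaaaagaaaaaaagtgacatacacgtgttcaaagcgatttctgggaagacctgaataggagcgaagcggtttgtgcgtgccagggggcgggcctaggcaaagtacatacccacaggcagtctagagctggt
Ccng1: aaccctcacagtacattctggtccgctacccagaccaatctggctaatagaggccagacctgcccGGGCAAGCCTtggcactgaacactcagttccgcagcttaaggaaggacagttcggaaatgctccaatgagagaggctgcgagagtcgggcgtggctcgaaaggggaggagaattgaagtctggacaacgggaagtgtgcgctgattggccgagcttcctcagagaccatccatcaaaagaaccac
Casp8: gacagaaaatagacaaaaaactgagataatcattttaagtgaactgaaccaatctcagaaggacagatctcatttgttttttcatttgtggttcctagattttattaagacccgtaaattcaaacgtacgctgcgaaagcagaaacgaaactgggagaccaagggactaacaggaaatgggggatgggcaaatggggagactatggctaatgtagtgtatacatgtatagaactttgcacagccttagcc
Mdm2: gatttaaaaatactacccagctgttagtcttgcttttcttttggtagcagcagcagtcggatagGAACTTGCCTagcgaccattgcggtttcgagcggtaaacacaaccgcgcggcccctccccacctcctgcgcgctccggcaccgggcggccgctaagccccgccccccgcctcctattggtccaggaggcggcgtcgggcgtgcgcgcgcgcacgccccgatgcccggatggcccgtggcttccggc
Trp53: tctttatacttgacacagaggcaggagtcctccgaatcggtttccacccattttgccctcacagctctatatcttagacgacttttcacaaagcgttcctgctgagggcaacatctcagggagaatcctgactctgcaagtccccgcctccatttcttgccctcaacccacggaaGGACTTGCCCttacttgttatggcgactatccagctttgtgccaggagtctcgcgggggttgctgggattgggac

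The match in Ccng1 began at -185 from the start, that in Mdm2 at -186 and that in Trp53 at -75, and the other 4 windows held none. RefSeq windows were found for 29 of the 35 genes (37 windows). Of these, 7 held a p53 half-site on either strand (18.9%), against 7.12% of all 32536 windows of that length. The motif of GATA factors, spelled AGATAA, matched 2 of the 37 windows (5.41%, all windows 9.97%). RUNX (TGTGGT) also matched 2 (all windows 14%), as did AP-1 (TGANTCA, all windows 6.73%) and PU.1 (GAGGAAGT, all windows 2.45%), each searched on both strands and free to overlap. The CpG content set the printed windows apart: Mdm2 held 29 CpG, Btg2 and Bbc3 27 each, Fas and Ccng1 11 each, Trp53 9 and the inner Casp8 start 5. The median was 18 CpG over the 37 windows and 6 over all windows.

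In Idh2 R172K peaks of these genes differed from WT widely and in both directions, as did peaks in general. Of 359 tested peaks, 211 differed from WT at an adjusted p under 0.05 (58.8%, against 53% of all tested peaks). There were 86 raised (24%, all peaks 25.1%) and 125 lowered (34.8%, all peaks 27.9%), and the median log2 fold change was -0.05 against 0.01 over all peaks. At least 1 peak was called at 34 of the 35 genes, Atr being the exception. The matching share over all genes was not counted. With 53% of all tested peaks called, these counts per gene are not a trait of the 35. Raised and lowered peaks stood together at 22 genes, 9 genes had only raised peaks and 3 (Trp53, Atm and Tnfrsf10b) only lowered ones, against 18, 8 and 7 genes with library-size scaling. Changes beyond 2-fold were mostly losses, 60 lowered (16.7%, all peaks 13.2%) against 11 raised (3.06%, all peaks 3.63%).

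**Figure D1:**
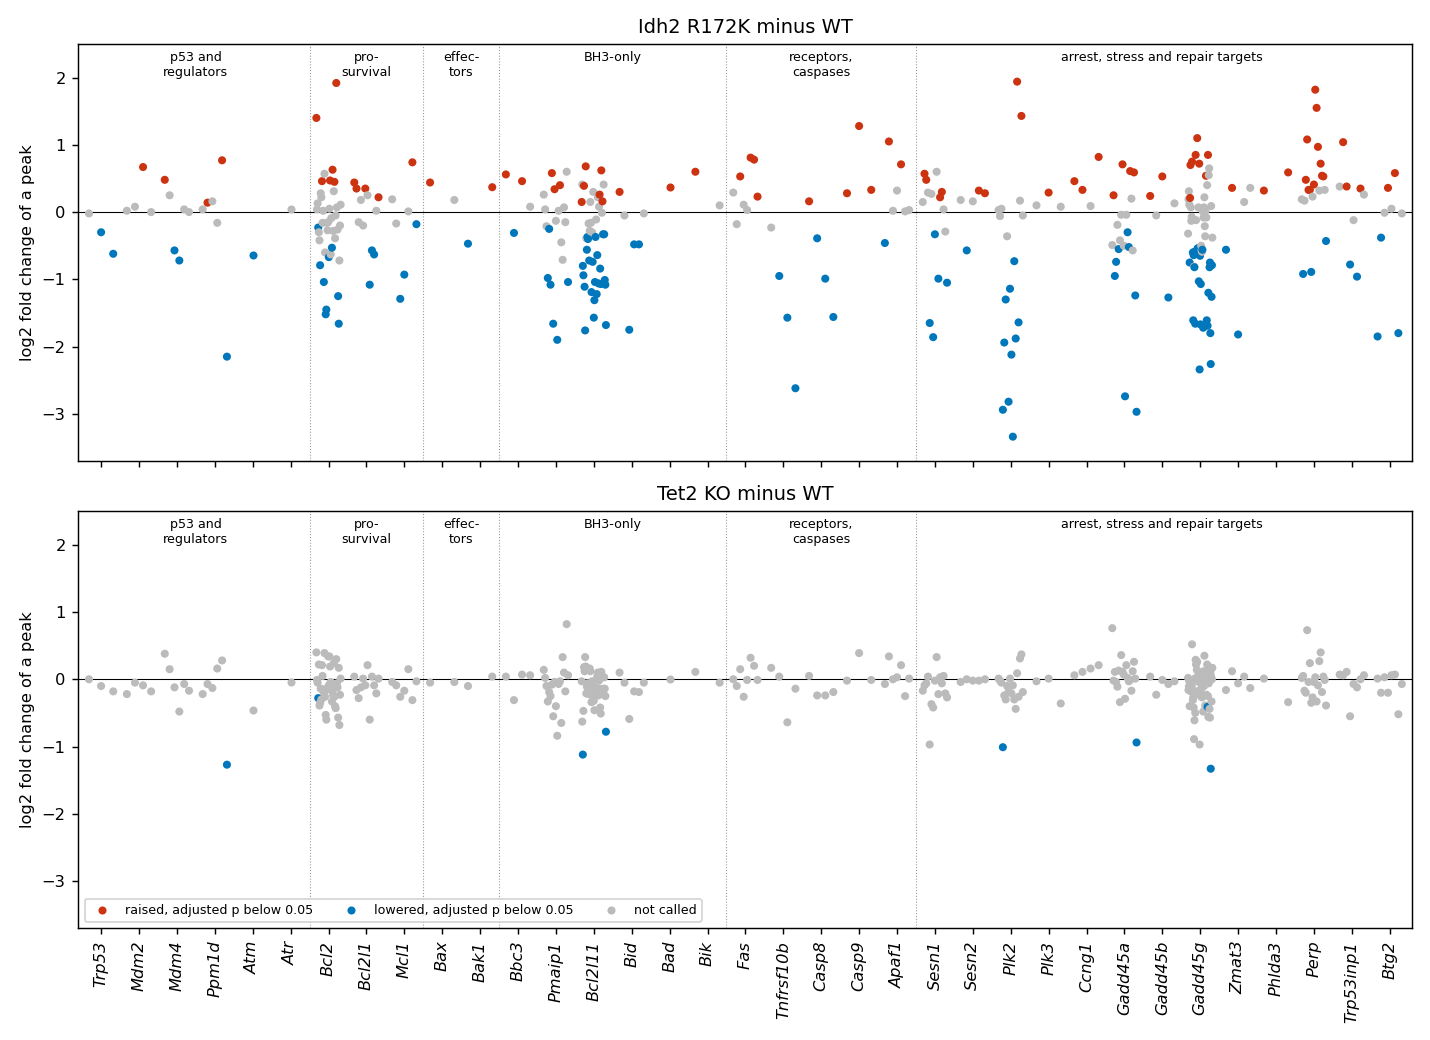
Each point is a tested peak of the gene on the x axis, in genome order within the gene. The y axis gives the log2 fold change against WT (edgeR fit, 4 libraries per genotype), with Idh2 R172K above and Tet2 knockout below. Called peaks are red (raised) or blue (lowered). The 125 lowered Idh2 R172K peaks reach -3.34 and the 86 raised ones 1.94, while only 8 peaks, all lowered, are called in Tet2 knockout.

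Summed signal at several markers of other blood cells differed between Idh2 R172K and WT. The counts below stand beside 25.1% of all tested peaks raised and 27.9% lowered. Strong peaks weigh most in a sum, and of all peaks with a WT mean over 20 CPM 50.5% were raised and 8.13% lowered. Whether the sums differ more than other peaks of their strength was not tested. Summed over all their peaks, mast cell and basophil markers (Cpa3, Mcpt8 and Ms4a2) went from 36.7 to 42.2 CPM in WT to 61.5 to 68.3 in Idh2 R172K, with 7 of 14 peaks raised and 2 lowered. In Idh2 R172K Cpa3 held 29 ± 2.58 CPM (WT 16.3 ± 1.4), Ms4a2 29.1 ± 2.1 (WT 14.6 ± 0.776) and Mcpt8 7.29 ± 1.34 (WT 8.47 ± 1.16). Megakaryocyte markers ran from 185 to 195 CPM in WT and 214 to 245 in Idh2 R172K (5 of 10 peaks raised), and erythroid markers from 169 to 179 and 197 to 202 (5 of 30 raised, 9 lowered). T and NK cell markers ran from 21.4 to 22.8 and 24.2 to 27.1 CPM (3 of 15 raised, 4 lowered), with Cd3e at 7.95 ± 0.841 in WT and 14.3 ± 0.574, Cd4 at 10.1 ± 0.477 and 8.08 ± 1.31, and Ncr1 from 3.3 to 4.53 and from 2.14 to 3.15. B cell markers were lower, 154 to 165 against 122 to 127 CPM (23 of 50 lowered), as were stromal and endothelial ones, 282 to 307 against 263 to 271. Neutrophil and monocyte markers overlapped, 159 to 182 against 145 to 163 CPM (17 of 29 lowered). No peak bore the name of Hba-a1, Ly6g, Cd79a, Cd3g or Cd8a. Markers of the LSK gate ran from 940 to 984 CPM in WT and 965 to 1024 in Idh2 R172K. The part of these shifts in the results on Idh2 R172K was not tested, and in pooled cells a change in the share of a cell type and a change within cells cannot be told apart.

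The peaks nearest the transcription starts moved mostly upward. Among the 32 genes with a start-site peak (promoter class or within 1 kb of a start, the strongest if several), 19 rose, 1 fell and the median log2 fold change was 0.21. Of all promoter-class peaks 39.8% rose and 15% fell, with a median of 0.14. The gains were small, from 0.14 to 0.60 on the log2 scale, and in 17 of the 19 every Idh2 R172K library lay above every WT library (Sesn1 and Phlda3 overlapped). The 19 were picked because they were called, so that separation largely follows from the choice. Of all 32 start-site peaks 17 lay wholly above WT (53.1%), against 33.8% of all promoter-class peaks and 20.4% of all tested peaks. The count depends on the scaling: with cyclic loess, which evens out the libraries along peak strength, 11 rose, 4 fell and the median was 0.06. Start-site peaks are strong, 27 of the 32 having a WT mean over 20 CPM, and among all peaks of that strength 50.5% were raised and 8.13% lowered. Atm, Bad and Tnfrsf10b had no start-site peak.

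**Figure D2:**
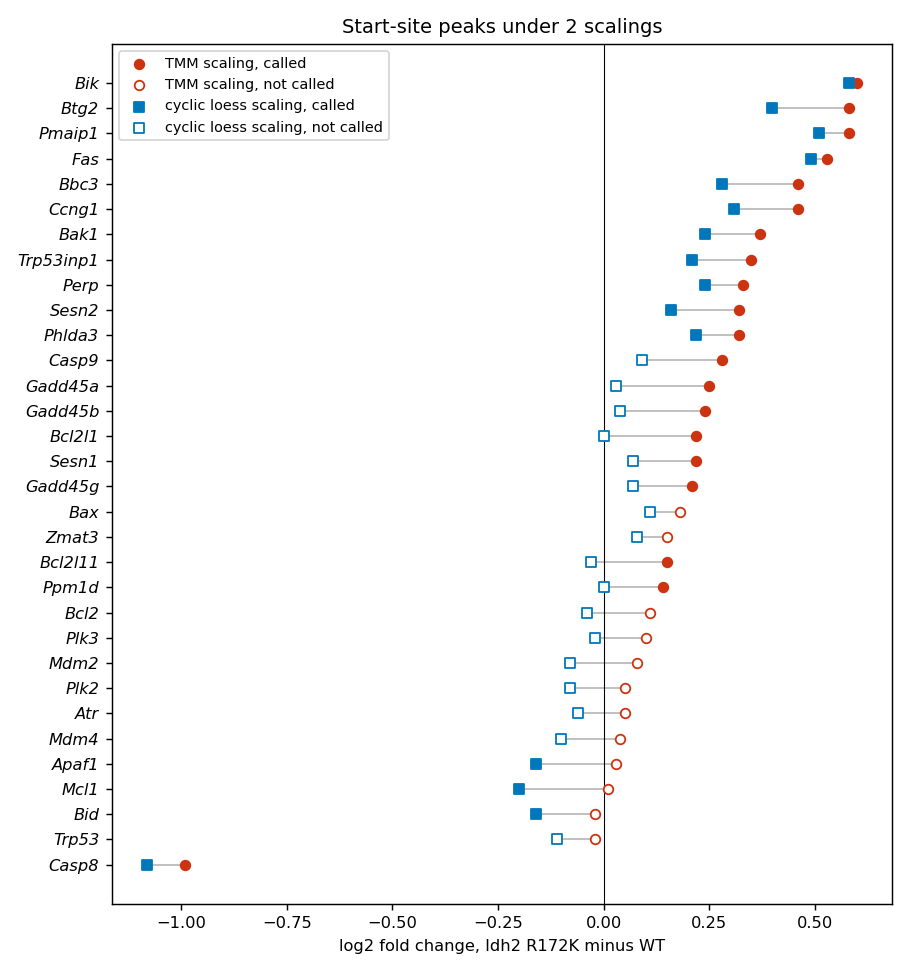
The x axis is the log2 fold change of each start-site peak, Idh2 R172K minus WT, with TMM (circles) and cyclic loess scaling (squares). Filled symbols are called. Bik, Btg2, Pmaip1 and Fas lie highest under both scalings, Casp8 is lowest under both, and 8 genes, Casp9 and Ppm1d among them, lose their call under loess.

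The start sites of Trp53 and of Mdm2 and Mdm4, which encode its inhibitors, were not called in Idh2 R172K, while peaks inside Trp53 fell. At the Trp53 start (chr11:69580028-69580617, promoter class) WT libraries held 22.5, 25.1, 19.1 and 20.7 CPM and Idh2 R172K libraries 22.8, 20.4, 21.9 and 21 CPM. The groups overlapped (log2 fold change -0.02 ± 0.07, SE, adjusted p = 0.805). At the Mdm2 start (chr10:117709937-117711142) the means were 52.1 ± 3.59 and 55.5 ± 3.48 CPM (SD, n = 4 each, adjusted p = 0.292), and at the Mdm4 start 36.9 ± 4.04 and 38.1 ± 1.24 (adjusted p = 0.651). The single peak of Atr, the kinase for stalled replication forks, held 31.1 ± 2.09 and 32.2 ± 2.24 CPM (adjusted p = 0.497). Inside Trp53, the intronic peak at chr11:69585779-69586274 held 15.4, 16.1, 13.5 and 15.9 CPM in WT and 10.1, 10.5, 9.94 and 9.35 in Idh2 R172K, with no overlap (log2 fold change -0.62 ± 0.10, adjusted p = 4.06e-06). A neighbouring intronic peak at chr11:69581176-69581665, named after its values were seen, went from 24.4 ± 1.32 to 19.8 ± 1.2 CPM (-0.30, adjusted p = 0.000226). Both calls held under library-size and cyclic loess scaling. Ppm1d, the phosphatase that ends the p53 response, rose at its start from 43.3 ± 1.31 to 47.7 ± 1.56 CPM (0.14, adjusted p = 0.027), a call lost with cyclic loess (-0.00). It also had the deepest loss among the 21 peaks of p53, its inhibitors and the kinases, in an exonic peak (chr11:85339563-85339793), from 0.86 ± 0.198 to 0.194 ± 0.0681 CPM (-2.15 ± 0.36, adjusted p = 3.99e-06). The peak beside Atm fell by 0.64 on the log2 scale, from 5.53 ± 0.282 to 3.79 ± 1.83 CPM (adjusted p = 0.000694), with Idh2 R172K libraries from 1.97 to 6.33 CPM that overlapped WT at 5.12 to 5.73. Over these 21 peaks 4 rose and 6 fell (2 and 7 with library-size scaling), against 25.1% and 27.9% of all tested peaks.

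Among the survival genes the Bcl2 and Mcl1 starts were not called, and peaks away from the starts moved both ways. The Mcl1 start (chr3:95658380-95659707) held 88.2 ± 5.6 CPM in WT and 88.9 ± 6.84 in Idh2 R172K (log2 fold change 0.01, adjusted p = 0.912), but with cyclic loess it was called lowered at -0.20 (adjusted p = 0.000717). The Mcl1 peak 4484 bp outside the gene, at chr3:95652113-95652808, held 10.7, 9.58, 8.67 and 9.97 CPM in WT and 3.54, 4.87, 4.1 and 3.89 in Idh2 R172K. Every mutant library lay below every WT library (-1.29 ± 0.11, adjusted p = 1.97e-13). Bcl2 gained 2 of the clearest peaks. The one in its intron (chr1:106666235-106666841) rose from 0.721, 0.573, 0.723 and 0.779 CPM in WT to 2.46, 1.95, 2.81 and 3.21 (1.92 ± 0.22, adjusted p = 1.09e-09). The one 71319 bp outside the gene (chr1:106466521-106467194) rose from 1.62 ± 0.13 to 4.2 ± 0.49 CPM (1.40 ± 0.16, adjusted p = 7.08e-10). At Bcl2l1 (BCL-XL) the start site rose from 101 ± 4.26 to 118 ± 3.54 CPM (0.22, adjusted p = 0.00218), a call lost with cyclic loess (-0.00). In all, 11 of 59 survival-gene peaks rose and 15 fell (7 and 19 with library-size scaling), against 25.1% and 27.9% of all tested peaks.

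The start sites of several genes that trigger apoptosis were more open, beside 39.8% of all promoter-class peaks raised and 15% lowered. Whether these starts rose more often than others was not tested. Bbc3 rose at its start (chr7:16309216-16311218) from 60.9, 57.7, 51.6 and 62.8 CPM in WT to 83.2, 72.9, 82.7 and 80.5, with no overlap (log2 fold change 0.46 ± 0.06, adjusted p = 5.86e-08). A peak 8591 bp outside Bbc3 (chr7:16299559-16300055) rose from 19.5 ± 1.26 to 28.6 ± 4.77 CPM (0.56 ± 0.08, adjusted p = 7.74e-08). The Pmaip1 start held 17.9, 16.3, 15 and 16 CPM in WT and 23.4, 20.3, 28.3 and 25.3 in Idh2 R172K (0.58 ± 0.09, adjusted p = 3.86e-07). The Bik start (chr15:83526313-83527490), of another BH3-only protein, went from 10.3, 8.88, 8.48 and 8.08 CPM to 14, 13.3, 13.7 and 13.2 (0.60 ± 0.09, adjusted p = 4.64e-07), again without overlap. Bak1, a pore former, rose from 34.1 ± 2.4 to 44.2 ± 1.13 CPM at its start (0.37, adjusted p = 1.21e-06), whereas the Bax start at 16.1 ± 1.94 and 18 ± 3.17 CPM was not called (adjusted p = 0.112). These 4 gains were also called with cyclic loess. The single Bad peak, in the transcription end class, rose from 35.3 ± 2.16 to 45.9 ± 2.13 CPM (0.38, adjusted p = 2.14e-06). Bid, which Casp8 cleaves, was not called at its start (41 ± 2.26 and 40.3 ± 2.78 CPM, adjusted p = 0.786) and with cyclic loess was called lowered (-0.16, adjusted p = 0.0148).

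Over all 75 peaks of the BH3-only genes 14 rose and 34 fell, against 25.1% and 27.9% of all tested peaks. With library-size scaling 8 rose and 35 fell. Of the losses 24 belonged to Bcl2l11, which had 43 peaks and 6 gains (2 gains and 25 losses with library-size scaling). The Bcl2l11 start itself rose, with 62.4 ± 1.49 CPM in WT and 69 ± 2.3 in Idh2 R172K (0.15 on the log2 scale, adjusted p = 0.0231), but its sign turned with cyclic loess (-0.03). Of the Bcl2l11 peaks 17 lay in the long noncoding RNA gene Morrbid, known as a regulator of Bcl2l11 in short-lived myeloid cells, and of these 3 rose and 10 fell.

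The death receptor genes parted. Fas, the receptor of Fas ligand, opened at its start (chr19:34290161-34291288) from 11.4, 11, 11.3 and 11.9 CPM in WT to 16.7, 16.8, 15.9 and 16.9 in Idh2 R172K (log2 fold change 0.53 ± 0.08, adjusted p = 1.4e-06). Of its 8 peaks 4 rose and none fell (all tested peaks 25.1% and 27.9%). Tnfrsf10b, the mouse TRAIL receptor, lost 3 of 4 peaks and gained none. Its exonic peak (chr14:69780217-69780881) held 5.61, 6.18, 6.18 and 7.42 CPM in WT and 1.19, 1.27, 0.85 and 0.901 in Idh2 R172K. That was the second strongest loss by p among all 361 peaks (-2.62 ± 0.16, adjusted p = 5.13e-17), and the groups lay far apart.

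Casp8, the initiator caspase of this branch, fell at its inner start. That peak (chr1:58802127-58803135) lost signal, from 25.5, 24.7, 21.8 and 28.6 CPM in WT to 12.6, 12.3, 13.5 and 12.3 in Idh2 R172K (log2 fold change -0.99 ± 0.08, adjusted p = 5.23e-14). It was the 1 start-site peak that fell with TMM. The outer start at the gene boundary (chr1:58795098-58795919) held 21.1 ± 0.772 and 23.7 ± 1.36 CPM (0.16, adjusted p = 0.0464), a call lost with cyclic loess (0.07, adjusted p = 0.409) and with library-size scaling (0.08, adjusted p = 0.321). Between and beyond them, the peak at 58797202 went down by -0.39 (adjusted p = 0.00128) and the intronic peak at 58803505 by -1.56 (adjusted p = 6.96e-08). These 3 Casp8 neighbours were named after their values were seen. Casp9 gained at all 3 of its peaks, with the start moving from 74.8 ± 2.88 to 91 ± 4.5 CPM (0.28, adjusted p = 0.000165), of which 2 were called with cyclic loess. The Apaf1 start, at 80.7 ± 8.21 and 82.5 ± 3.86 CPM, was not called (adjusted p = 0.702) and was called lowered with cyclic loess (-0.16, adjusted p = 0.0056). Over the 26 peaks of receptors, caspases and Apaf1, 10 rose and 7 fell (7 and 8 with library-size scaling). Of all tested peaks 25.1% rose and 27.9% fell.

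Of the 174 peaks of target genes for arrest, stress and repair, 45 rose and 62 fell (all tested peaks 25.1% and 27.9%). Btg2, an antiproliferative gene, rose at its start (chr1:134078299-134079685) from 68.6, 56.2, 53.1 and 59 CPM in WT to 88.9, 87.2, 86.5 and 92.7, with no overlap (log2 fold change 0.58 ± 0.07, adjusted p = 4.03e-09). Yet 11263 bp outside the gene a Btg2 peak (chr1:134063324-134063881) fell from 10.9, 8.55, 9.46 and 9.97 CPM to 2.77, 3.12, 2.96 and 1.97 (-1.85 ± 0.12, adjusted p = 3.64e-16). The pair shows gain and loss at the same gene in the same libraries. Ccng1, for cyclin G1, rose at its start (chr11:40754650-40755702) from 39.9, 43, 39 and 45.9 CPM to 55.3, 52.3, 56.2 and 67.9 (0.46 ± 0.07, adjusted p = 2e-06). Sesn2, a stress-induced sestrin, rose from 45.4 ± 2.44 to 56.4 ± 2.66 CPM (0.32, adjusted p = 3.41e-05), Trp53inp1 from 35.5 ± 1.57 to 45.2 ± 2.97 (0.35, adjusted p = 6.75e-06) and Phlda3, an inhibitor of AKT, from 23.8 ± 1.88 to 29.6 ± 2.89 (0.32, adjusted p = 0.000205). Those start sites kept their call with cyclic loess, while those of Gadd45a, Gadd45b, Gadd45g and Sesn1 did not. The starts of Plk2, Plk3 and Zmat3 were not called (adjusted p = 0.497, 0.212 and 0.0712).

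**Figure D3:**
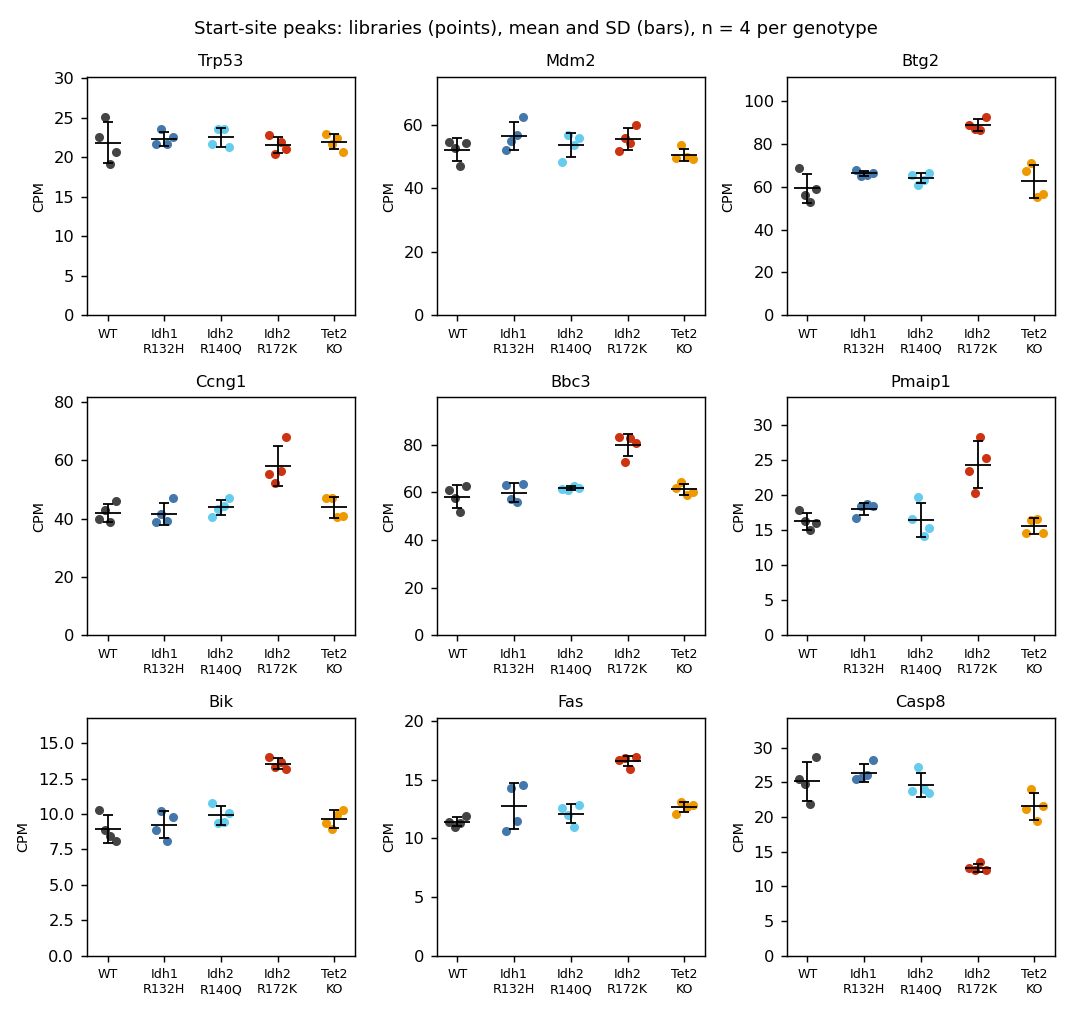
The y axis is CPM at the start-site peak and the x axis the genotype, with a point per library and bars for mean and SD (n = 4). Idh2 R172K libraries lie above all other libraries at Btg2, Ccng1, Bbc3, Pmaip1, Bik and Fas, below all others at the inner Casp8 start, and among them at Trp53 and Mdm2.

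Perp, which encodes a membrane protein of desmosomes and apoptosis, had 11 of 19 peaks raised and 3 lowered (8 and 3 with library-size scaling). Of all tested peaks 25.1% were raised and 27.9% lowered. In a run of peaks beginning 30092 bp outside Perp, the one at chr10:18889162-18889588 rose from 2.24, 1.64, 2.37 and 1.97 CPM in WT to 7.96, 6.04, 6.95 and 7.32 in Idh2 R172K (log2 fold change 1.82 ± 0.15, adjusted p = 3.94e-13). The next at chr10:18891151-18891442 rose from 1.57 ± 0.358 to 4.63 ± 0.561 CPM (1.55 ± 0.16, adjusted p = 8.46e-11). In Tet2 knockout these peaks held 2.06 ± 0.455 and 1.26 ± 0.162 CPM, both overlapping WT, and in Idh2 R140Q 1.73 ± 0.258 and 1.19 ± 0.252.

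Around Plk2, a polo-like kinase, the losses included the deepest of the 361 peaks. That peak, at chr13:110560521-110560926, 159879 bp from the gene, fell from 4.1, 2.99, 3.02 and 3.98 CPM in WT to 0.462, 0.292, 0.222 and 0.394 (log2 fold change -3.34 ± 0.23, adjusted p = 6.31e-16). The peak at chr13:110557776-110558919 went from 4.96 ± 0.256 to 1.19 ± 0.258 CPM (-2.12 ± 0.16, adjusted p = 2.2e-14). A stronger peak at chr13:110538005-110538739, 137528 bp from Plk2, held 21.7, 22.8, 21.3 and 24.4 CPM in WT and 2.54, 3.12, 3.62 and 3.55 in Idh2 R172K (adjusted p = 1.18e-24). In the opposite direction, a peak 346868 bp away (chr13:110747329-110748096) rose from 4.69 ± 0.518 to 12.6 ± 2.19 CPM (1.43 ± 0.11, adjusted p = 2.74e-14). Of 18 tested Plk2 peaks 10 fell and 2 rose, counts that were the same with TMM, library-size and cyclic loess scaling and with DESeq2. Over all tested peaks 27.9% fell and 25.1% rose.

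The excess of losses lay far from the genes. Of 118 tested peaks more than 50 kb outside their gene, 57 fell (48.3%, all such peaks 31.9%) and 20 rose. Of those inside their gene 29.6% fell (all 27.2%), and of those up to 50 kb outside 26.7% (all 27.6%). Most distant peaks belonged to 4 genes: 23 of 47 fell at Gadd45g, 17 of 30 at Bcl2l11, 10 of 15 at Plk2 and 5 of 12 at Gadd45a. Gadd45g, Bcl2l11 and Bcl2 together held 146 of the 361 peaks (40.4%), and without these 3 genes 66 of 214 tested peaks rose (30.8%) and 65 fell (30.4%). Of the distant peaks of the other genes, 17 of 40 fell and 11 rose.

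**Figure D4:**
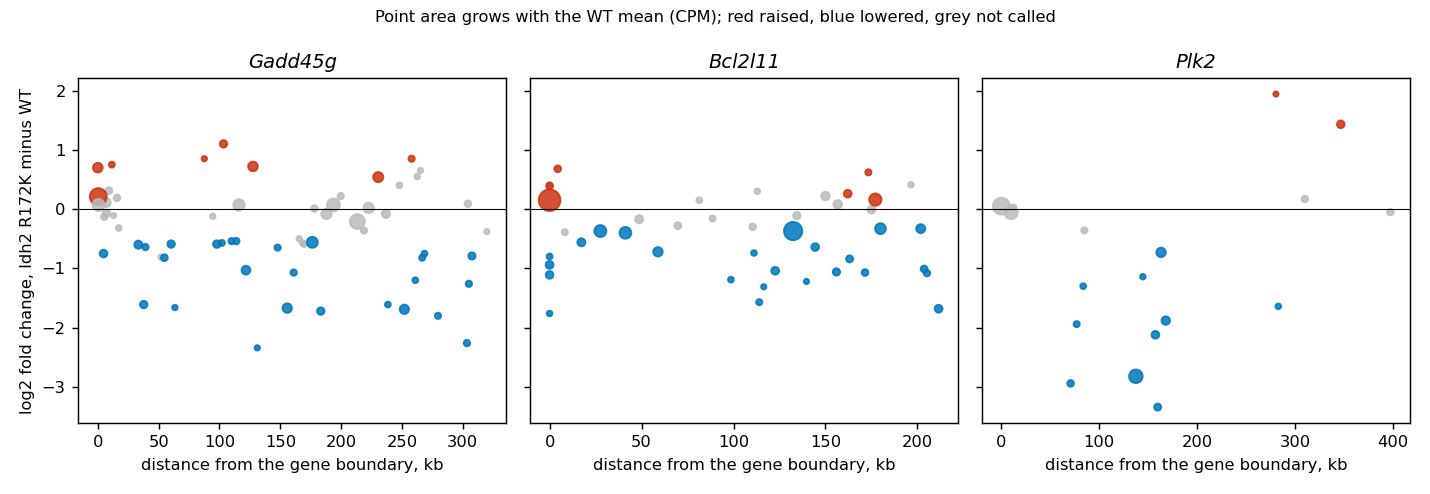
The x axis is the distance of a peak from its gene in kb, 0 meaning inside it, and the y axis the log2 fold change, Idh2 R172K minus WT. Point area grows with the WT mean. At Gadd45g and Bcl2l11 the blue losses run along the flank. At Plk2 9 of the 10 losses lie between 70900 and 168092 bp from the gene and the other at 283033 bp.

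Gadd45g, a damage-induced gene of growth arrest, carried the most peaks, 62, of which 8 rose and 27 fell (all tested peaks 25.1% and 27.9%). The peak at chr13:52003807-52004449, 155653 bp from Gadd45g, held 10.2, 7.9, 9 and 9.11 CPM in WT and 2.85, 2.82, 2.85 and 2.87 in Idh2 R172K (log2 fold change -1.67 ± 0.12, adjusted p = 6.53e-15). Nearer, a peak 103283 bp away (chr13:51951373-51952143) rose from 4.33 ± 0.61 to 9.28 ± 0.651 CPM (1.10 ± 0.11, adjusted p = 6.96e-11). At the end of the gene itself (chr13:51847960-51848370) the signal rose from 9.7 ± 0.748 to 15.7 ± 1.05 CPM (0.70 ± 0.08, adjusted p = 2.35e-09). The 20 Idh2 R172K peaks with the lowest p, 10 raised and 10 lowered, had no overlap with WT. These peaks were chosen for low p against WT, so that separation follows from the choice. Of all tested peaks 20.4% lay wholly above WT and 23.5% wholly below. The 20 peaks were also called against Tet2 knockout, Idh2 R140Q and Idh1 R132H. Those comparisons share the Idh2 R172K libraries and add no independent support.

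The remaining counts for Idh2 R172K complete the 35 genes, and they stand beside 25.1% of all tested peaks raised and 27.9% lowered. Of 40 tested Bcl2 peaks 6 rose and 9 fell (3 and 11 with library-size scaling). Of 12 Bcl2l1 peaks 4 rose and 3 fell, a balance that turned with library-size scaling (3 and 4) and was 3 and 1 with cyclic loess. Pmaip1 had 3 raised and 6 lowered of 19. Among the inhibitors of p53, Mdm4 had 1 raised and 2 lowered of 6 and Mdm2 1 raised of 4. The raised Mdm4 call was lost with library-size scaling and with DESeq2, and with cyclic loess Mdm4 had 1 raised and 1 lowered. Gadd45a, kin of Gadd45g, had 4 raised and 8 lowered of 20, while Sesn1 had 4 raised and 5 lowered of 15 (5 and 4 with cyclic loess). Smaller sets were Trp53inp1 (3 raised, 2 lowered, 8 peaks), Zmat3 (1 raised, 2 lowered, 5 peaks), Gadd45b (2 raised, 1 lowered, 5 peaks) and Plk3 (1 raised, 3 peaks). Ccng1 had 3 raised of 4 (1 with library-size scaling), Phlda3 2 of 2, and Bik and Bax 1 of 2 each, none of them with a loss. Bak1 had 1 raised and 1 lowered of 2, Bbc3 2 and 1 of 4, Ppm1d 2 and 1 of 6 (1 and 2 with cyclic loess and with library-size scaling), Apaf1 2 and 1 of 7 (3 and 2 with cyclic loess), and Sesn2 2 and 1 of 5. Bid had 1 raised and 3 lowered of 6, Mcl1 1 and 3 of 7 (1 and 5 with cyclic loess), and Btg2 2 and 3 of 8. With library-size scaling the gains at Bid, Plk3 and Zmat3 were lost. With cyclic loess Trp53inp1 had 5 raised and 2 lowered, Zmat3 2 and 2, and Gadd45b 1 and 1. Peaks per gene ran from 1 at Atm, Atr and Bad to 62 at Gadd45g.

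Tet2 knockout touched few of these peaks, and all 8 calls were losses. Of 359 tested peaks 8 fell (2.23%, all peaks 2.32%) and none rose by edgeR (all peaks 0.785%, either direction 3.1%). At an unadjusted p under 0.05 there were 10 higher and 55 lower (18.1% of the 359, all peaks 15.9%), and DESeq2 called 6 lower and none higher. The split of all peaks by direction at that unadjusted p was not counted. The balance over all peaks turned with the Xist set. In the libraries low at Xist 2279 of all tested peaks were raised and 1356 lowered, and in those high at Xist 469 and 2258. The 8 peaks lay at Gadd45g (2), Bcl2l11 (2), Plk2, Ppm1d, Gadd45a and Bcl2, none of them at a start. The start sites gave no call by edgeR or DESeq2 (lowest adjusted p = 0.0598 by edgeR, at the inner Casp8 start, and at an unadjusted p under 0.05 there was 1 higher and 1 lower).

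The peak with the lowest p lay 303367 bp from Gadd45g (chr13:52151595-52152089). It held 2.31, 2.78, 1.64 and 2.17 CPM in WT, 0.934, 0.974, 0.85 and 0.864 in Tet2 knockout and 0.423, 0.682, 0.554 and 0.282 in Idh2 R172K (Tet2 knockout minus WT -1.33 ± 0.22, adjusted p = 0.0002). Both mutants lay below every WT library, and Idh2 R172K lay below Tet2 knockout (-0.93, adjusted p = 0.013). The Plk2 peak at chr13:110471527-110471961 followed the same order, with 3.03, 2.33, 2.43 and 3.24 CPM in WT, 1.21, 1.7, 1.47 and 1.16 in Tet2 knockout (-1.01 ± 0.17, adjusted p = 0.000274) and 0.269, 0.487, 0.37 and 0.394 in Idh2 R172K (-2.94 against WT). The Bcl2l11 peak at chr2:128373637-128374450, inside an intron in the deposited annotation and 211496 bp from the gene, held 5.39, 5.77, 4.93 and 5.13 CPM in WT and 3.45, 3.56, 2.32 and 3.19 in Tet2 knockout (-0.78 ± 0.14, adjusted p = 0.000682). In Idh2 R172K it held 1.68 ± 0.472 CPM. At these 3 peaks no WT library overlapped either mutant. They had the lowest p in Tet2 knockout, so its separation from WT follows from the choice. How many of all tested peaks lay wholly below WT in Tet2 knockout was not counted. In Idh2 R172K 23.5% did.

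Of the other 5 losses 4 overlapped WT. The exonic Ppm1d peak did not, and went from 0.86 ± 0.198 CPM in WT to 0.339 ± 0.123 (log2 fold change -1.27 ± 0.31, adjusted p = 0.0115). The intronic Bcl2l11 peak at chr2:128136833-128137331 held 1.48, 2.37, 0.591 and 1.39 CPM in WT and 0.513, 1.12, 0.425 and 0.789 in Tet2 knockout, with overlap (-1.12, adjusted p = 0.0203). The Gadd45g peak at chr13:52100071-52100737 held 8.71 ± 0.383 and 6.63 ± 1.55 CPM (-0.41, adjusted p = 0.0354), with Tet2 knockout replicate 2 at 8.91 inside the WT range. The Gadd45a peak at chr6:67149404-67149673 held 1.21 ± 0.38 and 0.636 ± 0.122 CPM (-0.94, adjusted p = 0.0389), and the Bcl2 peak at chr1:106517526-106518292 held 34.6 ± 2.19 and 28.7 ± 5.09 (-0.28, adjusted p = 0.0478). All 8 peaks were also called lower in Idh2 R172K (all tested peaks 27.9%), a comparison with the same WT libraries. The matching share among all peaks lowered in Tet2 knockout was not counted. In the direct test Idh2 R172K differed from Tet2 knockout at 5 of the 8 (all tested peaks 44.3%). Of the 8 calls 6 were lost in the libraries low at Xist and 1 in those high at Xist, and the log2 fold change of the Bcl2 peak was -0.00 in the low set and -0.56 in the high set. Leaving out 1 library moved the count from 3 (without Tet2 knockout replicate 1) to 17 (without Tet2 knockout replicate 2), with 5 without WT replicate 2, 4 without Tet2 knockout replicate 3 and 5 without Tet2 knockout replicate 4.

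**Figure D5:**
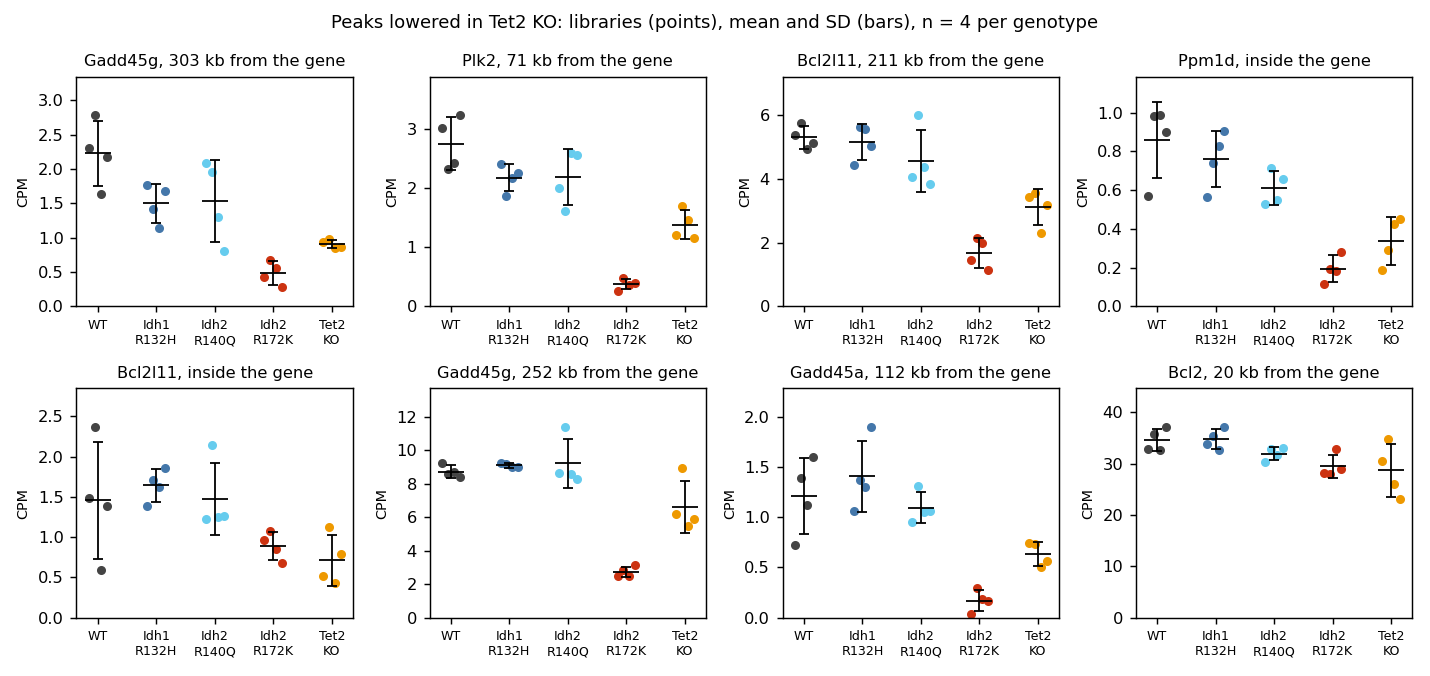
The y axis is CPM and the x axis the genotype for the 8 peaks called lower in Tet2 knockout, with a point per library and bars for mean and SD (n = 4). At the Gadd45g peak 303367 bp away, the Plk2 peak and the Bcl2l11 peak 211496 bp away every Tet2 knockout library lies below every WT library. Idh2 R172K means lie below the WT mean at all 8.

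Idh1 R132H and Idh2 R140Q gave no call at these genes. By edgeR 0 of 359 peaks passed in Idh1 R132H (all peaks 0.0274%, 0.00646% raised and 0.021% lowered, lowest adjusted p = 0.763) and 0 in Idh2 R140Q (all peaks 0.0153%, 0.00807% raised and 0.00726% lowered, lowest adjusted p = 0.779), and DESeq2 called 0 in each. At an unadjusted p under 0.05 there were 19 peaks in Idh1 R132H (5.29%, all peaks 5.07%) and 18 in Idh2 R140Q (5.01%, all peaks 5.5%), shares near those of all peaks. Start-site peaks had a median log2 fold change of 0.05 and 0.03. At the Btg2 start these genotypes held 66.2 ± 1.28 and 64 ± 2.42 CPM, between WT at 59.2 ± 6.71 and Idh2 R172K at 88.8 ± 2.77. At the inner Casp8 start they held 26.4 ± 1.27 and 24.6 ± 1.75 CPM, close to WT at 25.2 ± 2.8 and apart from Idh2 R172K at 12.7 ± 0.576.

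The direct tests set Idh2 R172K apart from each other mutant. Against Idh2 R140Q, a change in the same gene, 194 of 359 peaks differed (54%, all peaks 47%), 80 higher (all peaks 21.5%) and 114 lower (all peaks 25.5%) in Idh2 R172K. Against Idh1 R132H 199 differed (55.4%, all peaks 50%), 76 higher (all peaks 23.3%) and 123 lower (all peaks 26.7%). Against Tet2 knockout 173 differed (48.2%, all peaks 44.3%), 79 higher (all peaks 20.1%) and 94 lower (all peaks 24.1%). At the 32 start sites 19 were higher and 1 lower against Idh2 R140Q (all promoter-class peaks 32.1% and 14.1%). Against Tet2 knockout the counts were also 19 and 1 (all promoter-class peaks 32.5% and 14.2%), and against Idh1 R132H 18 and 1 (31% and 14.8%). At Tnfrsf10b the exonic peak held 6.21 ± 0.893 CPM in Idh2 R140Q against 1.05 ± 0.208 in Idh2 R172K (log2 fold change -2.59, adjusted p = 1.25e-16).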

How the data were processed

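ATAC-seq was measured in 20 libraries of LSK cells, 4 for each of 5 genotypes. The authors deposited whole-number read counts per peak over 1 peak set common to all libraries. The submitters' processing notes name Trim Galore, BWA, Picard, SAMtools, MACS2, featureCounts and mm10; their order, settings and any shift of reads for the transposase were not stated. Counts in peaks ran from 10.5 to 27.89 M per library, and the common biological variation was 7.73%. The deposited annotation pairs peaks with Ensembl IDs, so names came from RefSeq protein-coding genes on GRCm38.p6.

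Counts were fitted with edgeR 4.0.16 (R 4.3.3; TMM, filterByExpr, robust quasi-likelihood, 1 mean per genotype over 20 libraries). The filter removed 1435 peaks and left 123908, over which 2-sided p-values were adjusted by Benjamini-Hochberg, with 0.05 as the threshold. Raised, lowered, rose, fell and called refer to that threshold; fold changes are log2 with SE, and CPM are means with SD. The code was tested on simulated counts. Alternatives were DESeq2 1.42.0, limma 3.58.1 cyclic loess or library-size scaling, no filter, a replicate block, 2 genotypes only, leaving out each library, libraries low or high at Xist, naming by nearest start, a threshold of 0.01 and, added after seeing the data, leaving out the 3 genes with the most peaks.

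The text names start-site peaks, each gene's called peak with the lowest p, the 10 raised and 10 lowered peaks with the lowest p, and all calls where a comparison had at most 10. Genes, lists and rules were chosen with earlier results of these data known.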

Additional observations from a re-analysis of the deposited data

Results flagged for a closer look

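In groups of 4 libraries, 18 of 275 groups over 55 peaks held 1 library far from the other 3, judged by its gap to the nearest against the whole range (Dixon). Chance alone marks about 1 in 20 groups, and all values here are CPM.

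At distal and inner peaks, WT replicate 1 held 5.46 at the Plk2 peak 346868 bp from the gene (others 4.34 to 4.5). At the Perp peak 32302 bp out, Idh1 R132H replicate 3 held 2.68 (others 1.54 to 1.67) and Tet2 knockout replicate 3 held 2.74 (others 1.8 to 1.88). Idh1 R132H replicate 1 held 1.81 at the Bcl2 peak 71319 bp out (others 1.58 to 1.59) and 10.9 at the Btg2 peak 11263 bp out (others 8.47 to 8.83). Tet2 knockout replicate 4 held 5.26 at the Tnfrsf10b exon (others 5.95 to 5.99). Idh2 R140Q replicate 3 held 3.19 at the Plk2 peak 159879 bp out (others 3.92 to 3.98).

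Idh2 R140Q replicate 2 was apart at 4 peaks. It held 27.2 at the inner Casp8 start (others 23.5 to 24), 11.4 at the Gadd45g peak 251929 bp out (others 8.27 to 8.61), 2.14 at the intronic Bcl2l11 peak (others 1.23 to 1.26) and 34.1 at the Plk2 start (others 39.3 to 40.1).

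At the other start sites, Tet2 knockout replicate 2 held 53.5 at Mdm2 (others 49.2 to 49.8) and replicate 1 held 80.6 at Gadd45b (others 75 to 75.6). Idh1 R132H replicate 4 held 40.8 at Mdm4 (others 37.4 to 37.9) and 106 at Apaf1 (others 86 to 88.4). Idh1 R132H replicate 1 held 16.7 at Pmaip1 (others 18.4 to 18.7) and 40.6 at Plk2 (others 35.4 to 36.2). Idh2 R172K replicate 3 held 15.9 at Fas (others 16.7 to 16.9), still above every WT library.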

How the results depend on the processing

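The 20 Idh2 R172K peaks with the lowest p kept their direction and call in all 340 alternative values. They were picked for low p in the same libraries, so this was close to fixed in advance. Idh1 R132H and Idh2 R140Q gave 0 calls in every alternative. In Idh2 R172K the 211 calls became 131 and the 125 losses 65 without the 3 genes with the most peaks (fewer peaks by construction), and the 86 gains became 56 in the libraries high at Xist (fewer samples). With cyclic loess 11 start sites rose and 4 fell, and the start sites of Ppm1d (-0.00), Bcl2l1 (-0.00) and Bcl2l11 (-0.03) changed sign; the cause was not tested. For the 17 called start-site peaks outside those 20 peaks, 264 of 289 alternative values kept the call, 22 lost it and 3 turned; calls gained at other start sites are not in this count.

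The 8 Tet2 knockout calls became 3 at a threshold of 0.01, 17 when peaks were named for the nearest start, 18 in the libraries high at Xist and 18 with only the 2 genotypes fitted. Leaving out 1 library gave 3 to 17. Of 136 values for these peaks 95 kept the call and 41, at 6 peaks, lost it. In the libraries high at Xist, Idh2 R172K differed at 112 peaks from Tet2 knockout and at 118 from Idh2 R140Q.

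With a replicate block the Tet2 knockout calls became 23. The numbers share no stated source: deviations of the 40 same-numbered pairs correlated from -0.0942 to 0.289 (median 0.101, other pairs -0.0351), 20 of 40 above 0.1, and 15 of 20 libraries were closest to their own number, a hint from the data and not the design. Except in Tet2 knockout, same-numbered libraries also belong to the same Xist set. The part of the Xist set in these correlations was not tested.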

Other observations

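Another 50 p53 and apoptosis genes, outside the 35, held 379 peaks, of which 376 were tested. In Idh2 R172K 109 rose and 102 fell (all tested peaks 25.1% and 27.9%), with a median log2 fold change of 0.00 (all 0.01). The clearest gains lay near Bmf, a BH3-only gene, from 1.26 ± 0.414 CPM in WT to 4.08 ± 0.195 (SD, n = 4 each; log2 fold change 1.73, edgeR adjusted p = 4.43e-11), in an intron of Hipk2, a kinase of p53, from 0.909 ± 0.146 to 3.12 ± 0.343 (1.83, adjusted p = 4.67e-11), and near Kat5, an acetyltransferase, from 5.81 ± 0.0731 to 11.9 ± 0.104 (1.03, adjusted p = 8.59e-12). An exonic peak of Casp6, a caspase gene, fell from 11.2 ± 1.08 to 2.38 ± 0.445 CPM (-2.24, adjusted p = 1.74e-14). A peak 14634 bp outside Cdkn1a, the p53 target that halts the cell cycle, fell from 7 ± 0.626 to 2.81 ± 0.279 CPM (-1.29, adjusted p = 1.39e-12). The deposited annotation puts it in an intron, 2616 bp from an annotated start. A peak 9309 bp from Usp7, which deubiquitinates Mdm2 and p53, fell from 6.45 ± 0.439 to 1.5 ± 0.251 (-2.16, adjusted p = 6.07e-16). In the deposited annotation that peak is of the promoter class, at -100 bp from a start, while the RefSeq start of Usp7 lay 28034 bp away.

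In Tet2 knockout 2 of these 376 peaks rose and 5 fell (all tested peaks 0.785% and 2.32%). A peak near Bmf rose from 4.91 ± 0.738 to 6.44 ± 0.269 CPM (0.39, adjusted p = 0.0458). The Xpc intron, in a gene of DNA repair, fell from 14.1 ± 1.36 to 10.2 ± 0.93 CPM (-0.46, adjusted p = 0.00166).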
